A study of Homo sapiens with 18 samples.

Results

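The comparison described here set A549 cells kept for 72 h in air with 0.1 ppm formaldehyde against cells kept in parallel in a reference chamber without it. A549 is an established line from a human lung carcinoma that keeps some traits of alveolar type II cells, and it was grown on membrane inserts with its upper side open to the air. The members were the arrays titled as exposure and reference chamber of the 0.1 ppm experiments, 3 of each, so 6 of the 18 arrays of the series, and chambers with the same replicate number formed a pair. Both groups were the same untransfected line in humidified air on plates of the same kind. Each chamber held its own plate, so the groups differed in the plate, the chamber and the formaldehyde fed into it. In 3 further experiments both chambers held 0 ppm, and these gave the difference between the chambers and their plates without formaldehyde. A cell line of one origin gives no measure of the spread between people, and p-values here measure the spread between 3 paired cultures.

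Formaldehyde is a small reactive aldehyde that cells also make themselves, and it crosslinks proteins and DNA. It binds spontaneously to glutathione, and ADH5 and ESD turn that adduct into formate, which the folate enzymes can take up, while ALDH2 oxidises free aldehydes in mitochondria. Other known lines of response to aldehydes are the NRF2 programme of antioxidant enzymes, the heat shock proteins, which refold damaged proteins, and the repair of crosslinks in DNA.

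GIP, the precursor of a gut hormone that raises insulin release, had the largest lower difference among the genes of higher signal. Its signals were 3240, 1280 and 3950 in the reference chambers of pairs 1, 2 and 3, and 754, 495 and 993 in the 0.1 ppm chambers. All 3 exposed arrays lay below all 3 reference arrays, and the log2 difference was -2.10, -1.37 and -1.99 in the pairs, with a mean of -1.82 (standard error 0.39, n = 3 pairs, adjusted p = 0.987 in limma). With 0 ppm in both chambers the mean difference of GIP was -0.08, and the difference between these differences was -1.75 (adjusted p = 1.0 in limma), past an unadjusted p of 0.05. In RNA of whole cultures, fewer cells with a transcript and less of it per cell cannot be told apart. Among the 28 genes of higher signal described below, GIP was the only 1 that passed an unadjusted p of 0.05 in all 11 settings of the comparison, with adjusted p from 0.569 to 1.0 in limma. These settings refit the arrays on which the 28 genes were chosen, and some leave the mean unchanged, so these passes are a description.

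No probe set passed after adjustment, so each difference below that is said to have passed did so at an unadjusted p of 0.05 only. At an unadjusted p of 0.05, the study's own threshold, 2449 of 54675 probe sets passed in the paired fit in limma (4.48%), 952 higher (1.74%) and 1497 lower (2.74%) at 0.1 ppm, and the lowest adjusted p was 0.987. The same fit of the chambers at 0 ppm passed 3109 probe sets (5.69%). The count at 0.1 ppm was thus below that of chambers that held no formaldehyde. The excess of lower probe sets was not kept without pair 1, where 1666 of 2970 were higher. The share of higher ones was 38.9% as deposited, 47.2% after quantile normalization and 28.3% with 32 added to the signals.

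The sequences below are shown because they belong to the gene with the largest lower and the gene with the largest higher difference among those of higher signal. They are the 250 bases before the annotated start of each gene in RefSeq, on build GRCh38.p14, for GIP on the minus strand at chr17:48968597-48968846 and for TNFAIP6 on the plus strand at chr2:151357342-151357591. Capitals mark matches to TATAAA, the core of a TATA box, to AGATAA, a core bound by GATA factors, and to TGAGTCA, an AP-1 site, each searched on both strands.
GIP: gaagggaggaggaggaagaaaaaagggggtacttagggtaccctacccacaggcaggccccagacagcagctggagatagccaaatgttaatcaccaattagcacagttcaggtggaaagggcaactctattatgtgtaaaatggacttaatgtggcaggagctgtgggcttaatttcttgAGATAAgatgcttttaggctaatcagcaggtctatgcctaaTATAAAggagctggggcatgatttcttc
TNFAIP6: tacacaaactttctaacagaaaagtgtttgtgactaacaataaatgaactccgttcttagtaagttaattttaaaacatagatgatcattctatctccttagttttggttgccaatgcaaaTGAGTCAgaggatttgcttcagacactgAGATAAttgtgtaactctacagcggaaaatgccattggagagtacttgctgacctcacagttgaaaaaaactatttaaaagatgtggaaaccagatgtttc
The GIP promoter held TATAAA at 28 and AGATAA at 69 bases before the start, and that of TNFAIP6 held AGATAA at 101 and TGAGTCA at 129. Of 35116 promoters of this length, 10.7% held TATAAA, 9.17% AGATAA and 4.2% TGAGTCA. A match describes the letters only.

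One of the 6 arrays stood apart before any test. The 5' probe set of actin, a control that drops when RNA is broken or the copying stops short, had a log2 signal of 5.90 in reference chamber replicate 1. It was 9.70 and 8.14 in the other reference chambers and 8.64, 9.18 and 7.88 in the 0.1 ppm chambers. The 3' minus 5' difference of actin was 8.67 on that array, against 4.24 to 6.75 on the other 5. GAPDH, a second control of this kind, did not show this. Its 3' minus 5' difference was the lowest on that array, 0.150, against 0.244 to 0.638 on the other 5. Median signals of the 6 arrays were alike, from 26.7 to 32.8, and between 49.7% and 52.0% of probe sets were below 32, a level near the floor of the array. A549 and epithelial markers were well measured, with all 10 above the median probe set (geometric mean signals from 95.2 for KRT19 to 25100 for AKR1B10), whereas 1 of 6 fibroblast, 2 of 4 immune and 1 of 3 endothelial markers were above it. The fibroblast markers DCN and LUM were at 4.24 and 3.47 and COL1A1 at 273, the immune markers PTPRC and CD3E at 3.09 and 1.07 and CD14 and LYZ at 99.3 and 2650, and the endothelial markers VWF and CDH5 at 3.79 and 2.85 and PECAM1 at 35.6. Of the type II cell markers, SFTPB at 55.5, SFTPC at 33.4, NKX2-1 at 31.3 and ABCA3 at 356 were above the median probe set and SFTPD, NAPSA and SLC34A2 were not.

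The pair of this array had the widest spread. Over the 27337 probe sets with a mean log2 signal above the median of 4.77 (a signal of 27.3), the chamber differences had a standard deviation of 1.04 in pair 1, 0.377 in pair 2 and 0.586 in pair 3. Differences of these probe sets in the pairs were hardly alike, with Pearson's r of 0.116 between pairs 1 and 2, -0.155 between 1 and 3 and -0.0272 between 2 and 3. Pair 1 was most like pair 3 of the empty chambers (r = 0.716), with which it shares no array, and the reference array of that pair had the second lowest actin 5' signal of the series, 6.85. The GAPDH 3' minus 5' difference of that reference array was low, at 0.163. The 8 other combinations of a 0.1 ppm with a 0 ppm pair gave r from -0.114 to 0.391. These correlations run across probe sets, which are not independent, and describe the arrays. The part of RNA quality in the results below was not tested. Pair differences are printed for many of the genes named and drawn for all 28 genes and 32 lists described below.

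**Figure D1:**
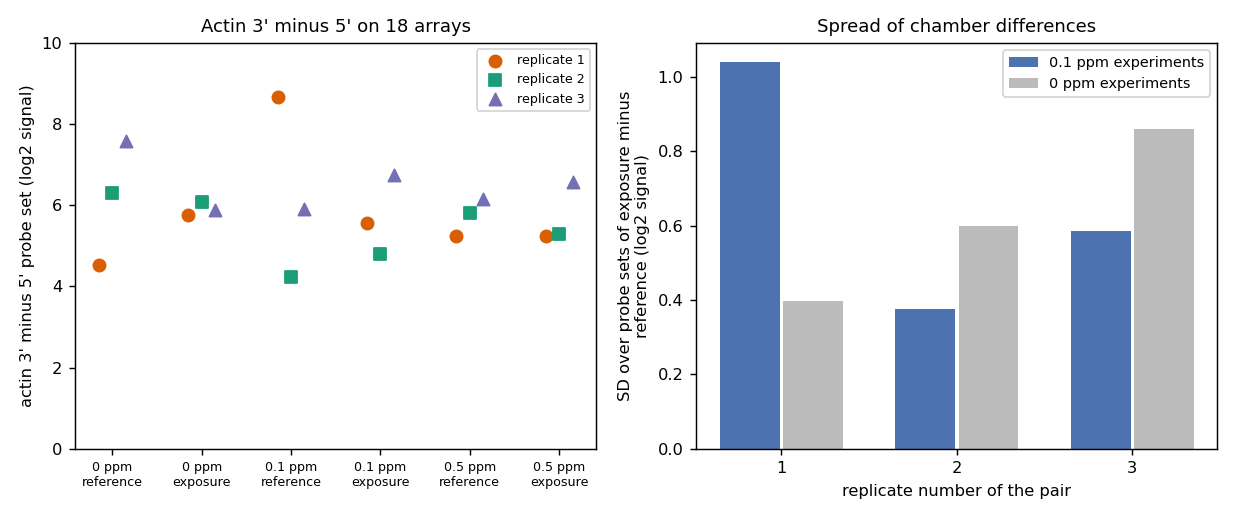
Left, the actin 3' minus 5' log2 signal (vertical axis) on each of the 18 arrays by group (horizontal axis), with symbols for replicate numbers. Right, the standard deviation over 27337 probe sets of the log2 chamber difference (vertical axis) in each pair (horizontal axis) at 0.1 and 0 ppm. Reference chamber replicate 1 of the 0.1 ppm experiments lies highest on the left at 8.67, and its pair has the widest spread on the right at 1.04.

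Most of the probe sets that passed had signals near the floor of the array. Their median signal was 3.23, and 2390 of 27338 probe sets at or below the median passed (8.74%), against 59 of 27337 above it (0.216%), 17 higher (0.0622%) and 42 lower (0.154%). Sorted by signal into 10 bins of equal size, 11.6% passed in bin 2, 0.75% in bin 6 and 0 of 5468 in bin 10, the brightest. The fit draws the spread of each probe set towards a value estimated over all of them, and the 3 pairs of a dim probe set had a median standard deviation of 1.81 in bin 2 and of 0.45 in bin 10. Fitted alone, the probe sets above the median gave 653 passes (2.39%), 216 higher (0.79%) and 437 lower (1.6%), with a lowest adjusted p of 0.955. Among their genes, each by its brightest probe set, 239 of 12365 passed (1.93%), 56 higher (0.453%) and 183 lower (1.48%).

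**Figure D2:**
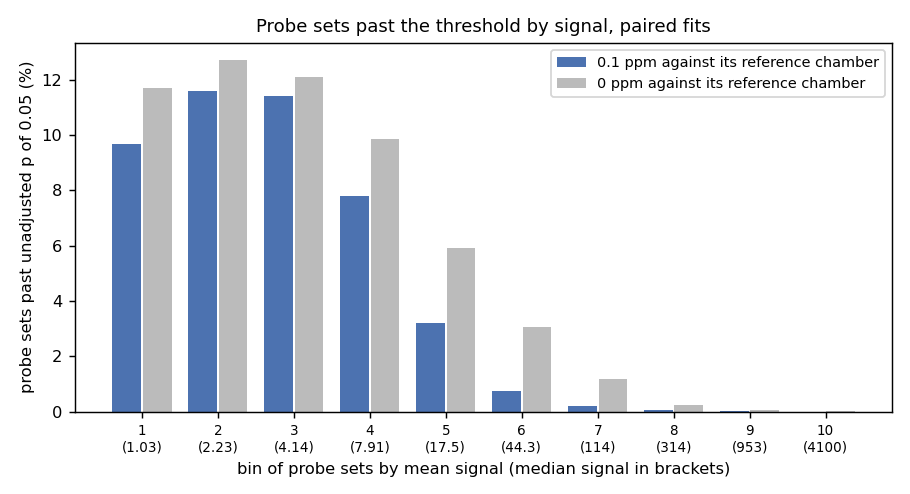
Share of probe sets past an unadjusted p of 0.05 in the paired fit (vertical axis, percent) in each of 10 bins of the 54675 probe sets sorted by mean signal over the 6 arrays of the 0.1 ppm experiments (horizontal axis, median signal in brackets), for the chambers at 0.1 ppm and at 0 ppm. The share falls from 11.6% in bin 2 to 0 in bin 10 at 0.1 ppm, and the 0 ppm bar is the higher in every bin.

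Among probe sets above the median, 45 genes passed in the paired fit of all probe sets with the same sign in every pair, 13 higher and 32 lower, and the 13 and the 15 largest of the 32 are described, 28 in all. The same sign in all 3 pairs was seen in 25.1% of all probe sets above the median, and the arrays of the chambers lay apart in 6.32% of them. The rule that chose these genes used these differences, so their sizes are a description. What it did not use, the empty chambers and the 0.5 ppm chambers, is set beside them. Other probe sets of the genes are given too, but the rule took the probe set of lowest p for each gene.

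TNFAIP6 had the largest higher difference. It encodes a secreted protein that binds hyaluronan and is induced by inflammatory cytokines. Its signals were 23.2, 129 and 231 in the reference chambers and 173, 274 and 521 at 0.1 ppm, so the groups overlapped although all pairs had the same sign. The log2 differences were 2.90, 1.09 and 1.17 with a mean of 1.72 (standard error 0.54), or 1.13 in pairs 2 and 3 alone. TNFAIP6 was higher by 1.48 in the empty exposure chamber as well, where it also passed, and the difference of these differences was 0.24 (adjusted p = 1.0 in limma).

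Signalling genes were among the higher ones. MAP3K7, the kinase TAK1 that passes signals of cytokine receptors to NF-kB, had signals of 65.9, 71.7 and 119 in the reference chambers and 177, 131 and 259 at 0.1 ppm. All exposed arrays lay above all reference arrays, and the mean log2 difference was 1.14 (standard error 0.37). In the empty chambers the mean was 0.15, from pairs of -0.81, 0.42 and 0.83. The difference of MAP3K7 from the empty chambers, 0.99, did not pass. A second probe set of MAP3K7 had a like difference, 1.17 (standard error 0.47), without passing, whereas its brightest probe set, at a geometric mean signal of 1550, had 0.40. INPP4A, a phosphatase of inositol lipids, went from 24.3, 46.2 and 26.7 to 59.4, 73.3 and 103, a mean difference of 1.30, and its brightest probe set showed 0.07.

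Genes that act on RNA or in the nucleus included MAGOHB, a core protein of the exon junction complex. Its signals of 16.8, 34.6 and 30.4 became 42.3, 65.0 and 62.1, with pair differences of 1.33, 0.91 and 1.03 that were among the most even of the higher genes. MAGOHB was higher by 0.99 in the empty chambers too, where it passed, and its brighter probe set had a difference of 0.11 at 0.1 ppm. RPRD1A, which binds the tail of RNA polymerase II, had 1.66 with 3.03 in pair 1, and 0.98 over the other pairs. GPBP1L1, ZBTB46 and ZNF595, the last 2 of zinc finger families, had mean differences of 1.37, 1.07 and 1.23, and GPBP1L1 had 0.88 over pairs 2 and 3. ZNF595 was the member of these with a difference from the empty chambers that passed, 1.36, although its probe set at a signal of 2930 differed by 0.02 only.

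Of the remaining higher genes, SEPTIN2, a septin of the cytoskeleton, had 1.27 by a probe set of signals from 102 to 494, and its probe set at 12600 had 0.13. FBXO43, an inhibitor of the anaphase-promoting complex in meiosis, had 1.16, and PLA1A, a secreted phospholipase, 1.06. LRRC40 had 1.05 and differed from the empty chambers by 1.02, which passed, and its probe set at 3730 had 0.38. ABRA, known from striated muscle, had 1.12 at 0.1 ppm and 2.88 in the empty chambers, where it passed too.

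GIP led the lower genes, and it was 1 of 7 lower genes whose difference from the empty chambers passed, with BIVM, RDH16, F10, NUP58, LOC646214 and PRKXP1. NUP58, a nucleoporin of the central channel of the nuclear pore, had signals of 47.9, 70.0 and 63.8 in the reference chambers and 18.3, 33.1 and 20.4 at 0.1 ppm. Its exposed arrays all lay below the reference arrays, with pair differences of -1.39, -1.08 and -1.65 and a mean of -1.37 (standard error 0.38), against 0.16 in the empty chambers, a difference of -1.53 that passed. Brighter NUP58 probe sets, at 2370 and 241, had differences of 0.25 and 0.83, against the named one, and a dimmer one at 14.2 had -0.94. The probe sets of NUP58 thus differed from each other. LOC646214, a transcribed pseudogene, had signals of 442, 534 and 448 in the reference chambers and 186, 258 and 135 at 0.1 ppm. The arrays lay apart as well, with a mean of -1.34 (standard error 0.38) and a difference from the empty chambers of -1.66 that passed, while a further probe set of it at 423 had 0.51. The probe sets of LOC646214, MAP3K7, LRRC40, BIVM and SHOX2 carry the suffix _x_at, which marks probes that may bind other transcripts as well.

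Enzymes and secreted proteins made up a further share of the lower genes. F10, the coagulation factor X, had signals of 119, 37.9 and 41.9 in the reference chambers and 34.2, 13.8 and 20.5 at 0.1 ppm, a mean difference of -1.43 (standard error 0.39) and one of -1.25 from the empty chambers, which passed. RDH16, a retinol dehydrogenase, went from 297, 39.0 and 148 to 103, 8.73 and 75.3, with overlapping groups and pair differences of -1.53, -2.16 and -0.97. GFER, a sulfhydryl oxidase of the mitochondrial intermembrane space, had signals of 1530, 842 and 805 against 323, 566 and 335, apart in all arrays, with a mean of -1.36 (standard error 0.49) and -0.57 in the empty chambers.

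CEP250, which links the paired centrioles, had -1.67 (standard error 0.42) with pair 2 at -2.19 the largest. SHOX2, a homeobox factor, had -1.56 by a probe set whose brighter neighbour at 2650 had 0.64. BIVM and LOC101929609, a long non-coding RNA, had -1.75 and -1.72. Pair 1 was -3.13 and -3.03 in these, while their means over pairs 2 and 3 were -1.07 and -1.06. Brighter probe sets of BIVM at 2810, 727 and 68.8 had 0.12, 0.50 and 0.77, and the one at 149 had -0.36. CCDC159, EXTL3-AS1, NIPAL3, JHY and PRKXP1, a kinase pseudogene, ranged from -1.42 to -1.27. A brighter probe set of JHY had 0.05. NIPAL3 was as low in the empty chambers, at -1.35, and 4 brighter or dimmer probe sets of it had differences from -0.35 to 0.24.

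**Figure D3:**
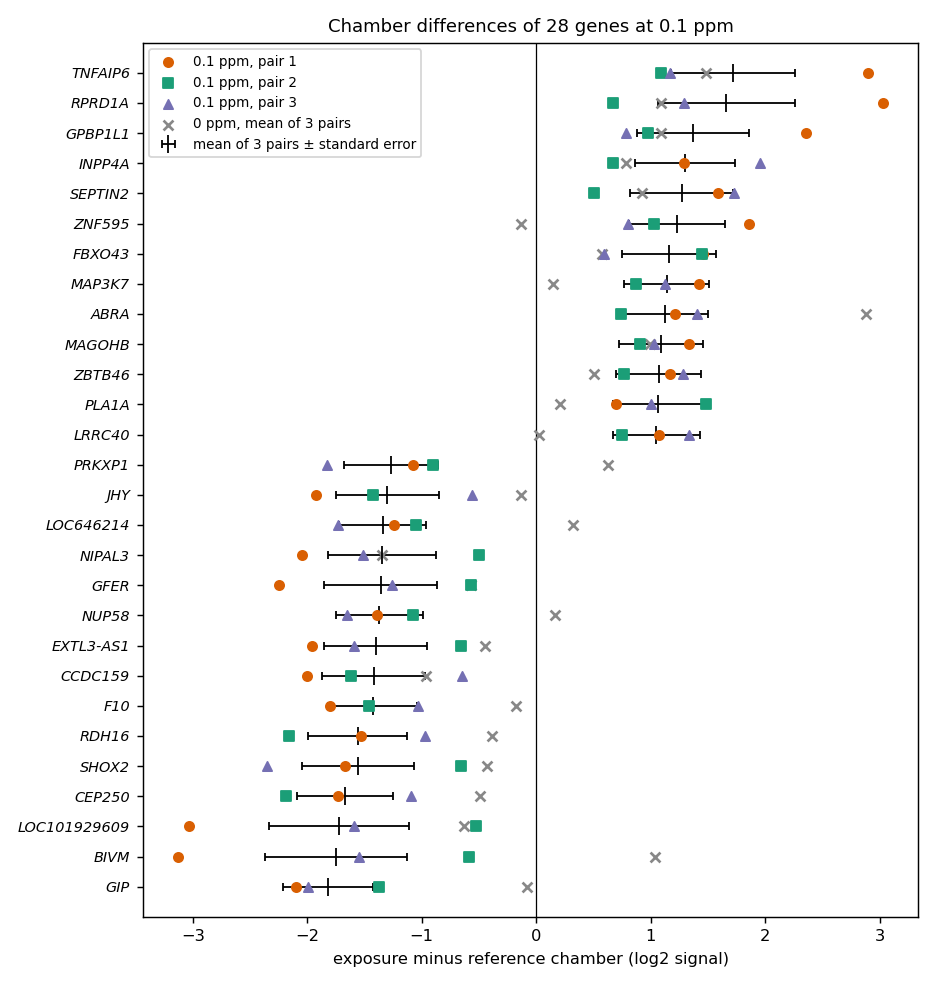
Log2 signal in the 0.1 ppm chamber minus its reference chamber (horizontal axis) for the 28 genes (vertical axis), as 1 symbol per pair, with the mean of 3 pairs and its standard error in black and the mean difference of the chambers at 0 ppm as a grey cross. GIP, NUP58 and LOC646214 lie at -1.82, -1.37 and -1.34 with the cross near or above 0, whereas the crosses of TNFAIP6 and NIPAL3 lie by their means.

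Without pair 1, 5 of the 28 passed, GIP, CEP250, F10, NUP58 and LOC646214, all of them lower genes, and leaving out pair 2 or pair 3 left 5 each. Without the block of pairs, 16 of the 28 passed, 5 of the 13 higher and 11 of the 15 lower, and 10 passed when reference chamber replicate 1 was left out of that fit. The limit of 27.3 that set the higher signals apart lies below 32, a level near the floor. With 32 added to the signals, CEP250, BIVM, NIPAL3 and NUP58 shrank from -1.67, -1.75, -1.35 and -1.37 to -0.80, -0.80, -0.65 and -0.73. ABRA shrank from 1.12 to 0.57. The brighter GIP and GFER went from -1.82 and -1.36 to -1.78 and -1.29.

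The empty chambers moved the same way for most of these genes. Their mean difference had the same sign for 12 of the 13 higher and 11 of the 15 lower genes. The share of all probe sets with like signs was not counted. In the empty chambers 3 of the 28 passed an unadjusted p of 0.05, TNFAIP6, ABRA and MAGOHB, where 0.915% of all probe sets above the median did. A difference from the empty chambers at an unadjusted p of 0.05 was found for 9 of the 28, where 3.9% of all probe sets had one. These 9 are ZNF595, LRRC40, GIP, BIVM, RDH16, F10, NUP58, LOC646214 and PRKXP1. The 2 shares are of unlike sets, since the 28 were all above the median signal. Fitted alone, 269 of the 27337 probe sets above the median had such a difference. Since the 28 were chosen on the 0.1 ppm differences that enter this test, the share among them is a description. At 0.5 ppm, in arrays of their own, the chamber difference had the same sign for 5 of the 13 higher and 12 of the 15 lower genes. The share of like signs over all probe sets was not counted here either. Among the lower genes, CEP250 and CCDC159 were at -1.45 and -0.74, but GIP was at -0.21 and NUP58 at -0.05. SHOX2, PRKXP1 and BIVM were at -0.02, -0.02 and -0.04, close to no difference.

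GIP itself varied between experiments without formaldehyde. In the reference chambers it ran from 1280 to 3950 in the 0.1 ppm, from 1560 to 1890 in the 0 ppm and from 670 to 3750 in the 0.5 ppm experiments. The 0.1 ppm chambers, from 495 to 993, lay below the 0 ppm exposure chambers, from 1340 to 1950, and overlapped the 0.5 ppm exposure chambers, from 692 to 3560. LOC646214 was from 135 to 258 in the 0.1 ppm chambers, from 298 to 534 in the other chambers of the 0 and 0.1 ppm experiments and from 138 to 327 in the 0.5 ppm experiments.

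Other probe sets of these 28 genes were looked at as well. Of the 28 genes, 19 had another probe set above the median signal, 38 in all, and 25 of these had the same direction. In the paired fit in limma 0 of the 38 passed, where 0.216% of all probe sets above the median did, so this count is near the background. For 16 genes such a probe set was the brighter, and the brightest had the same direction in 10. GIP, FBXO43, PLA1A, LOC101929609, RDH16, F10, CCDC159 and EXTL3-AS1 have no other probe set on the array, so nothing on it could be set against their values.

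**Figure D4:**
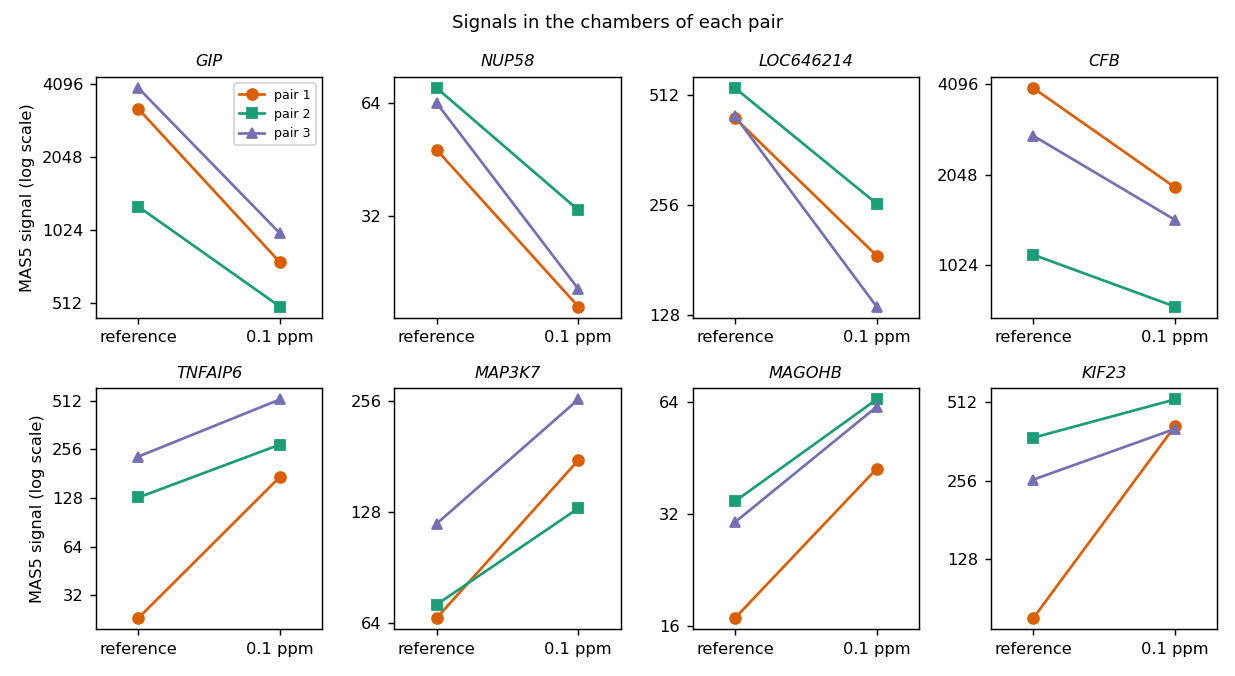
MAS5 signal (vertical axis, log scale) in the reference and the 0.1 ppm chamber (horizontal axis) for 8 genes, 1 line per pair. GIP, NUP58, LOC646214 and CFB fall and TNFAIP6, MAP3K7, MAGOHB and KIF23 rise in all 3 pairs, and the reference array of pair 1 is the lowest point for TNFAIP6 (23.2), MAP3K7 (65.9), MAGOHB (16.8) and KIF23 (76.5).

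The 32 gene lists drawn up for lung cells and aldehydes held 679 measured genes, of which 1 passed in the paired fit of all probe sets, where 3.28% of all 19775 genes did. It was MOGAT3, an acyltransferase of triglyceride synthesis, with a difference of 3.02 at signals of 0.248 to 11, which are near the floor. These shares are of unlike sets, since 611 of the 679 list genes but 12365 of the 19775 genes were above the median signal. In that fit 0.216% of probe sets above the median passed, against 8.74% of the others. In the fit of probe sets above the median, 15 of 611 list genes passed (2.45%), 5 higher and 10 lower, each at an adjusted p of 0.955, against 1.93% of all genes above the median. This share is near the background, and each of the 15 is given below with its list. The median difference over all genes was -0.09, and 42.9% of genes were above 0.

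The enzymes that handle formaldehyde showed little difference. ADH5 had signals of 10100, 6500 and 6800 in the reference chambers and 7190, 6010 and 8240 at 0.1 ppm, a mean difference of -0.11 (standard error 0.39). ESD had 0.05 and ALDH2 -0.08, with standard errors of 0.37. The signals overlapped in all 3 genes, and 0 of the 12 genes of the list passed in limma at an unadjusted p of 0.05 in either fit. Their median was -0.07 (pairs -0.30, -0.03 and 0.06). In the folate list, ALDH1L2, the mitochondrial enzyme that oxidises formyl-tetrahydrofolate, was the 1 of 13 genes that passed above the median. Its signals of 37.5, 53.4 and 55.9 became 86.3, 103 and 64.8, a difference of 0.79 (standard error 0.34), against -0.05 in the empty chambers.

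Antioxidant and stress genes gave few passes. The 27 NRF2 targets had a median of 0.15 with 16 above 0 and 0 passes, and the pairs disagreed at -0.355, 0.01 and 0.25. NQO1, a quinone reductase among them, had 0.06 and HMOX1, the inducible heme oxygenase, -0.09. All 10 genes of the metallothionein and zinc list had a mean above 0, with medians of 0.415, -0.02 and 0.30 in the pairs and 0 passes. The means ran from 0.03 to 1.01, the last for MT1M at signals of 0.426 to 5.08, near the floor. Of the 9 above the median signal, 1 had the same sign in all pairs. The probe sets of MT2A, MT1X, MT1H, MT1F, MT1G and MT1E carry the suffix _x_at, so they may bind other transcripts as well. Heat shock genes had a median near 0 with 8 of 17 above 0, and 2 passed in the fit above the median, both lower. HSF1, the master factor of the heat shock response, had pair differences of -1.56, -0.53 and -0.80, a mean of -0.96 (standard error 0.34), and CRYAB, a small heat shock protein, had -0.76 (standard error 0.31). In the empty chambers HSF1 had -0.82 and CRYAB -0.55, and the difference from them did not pass for either. Of 21 genes of crosslink repair 9 were above 0 and 1 passed in that fit, UBE2T, the E2 enzyme of the Fanconi anaemia pathway, at 0.90 (standard error 0.36) with pairs of 1.65, 0.33 and 0.73, or 0.53 without pair 1. The p53 list, the unfolded protein list and the BCL2 family had 0 passes.

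Immediate early genes, which respond to stimuli within minutes, had the highest list median, 0.33, with 14 of 20 above 0, and pair 1 at 0.63 was far above the others at 0.08 and 0.24. DUSP1, a phosphatase of MAP kinases, passed, from 182, 748 and 261 to 519, 899 and 572, a difference of 0.97 (standard error 0.36). FOS had pair differences of 2.60, 0.10 and 0.59 and MYC of 4.18, -0.12 and 0.66, and neither passed. Reference chamber replicate 1 held the lowest MYC signal of the 6 arrays, against 342 and 128 in the other reference chambers. The ERBB list had the same form, with medians of 1.00, 0.08 and -0.165, and the cytokine list had 0.45, 0.22 and 0.13 with 15 of 22 above 0 and 0 passes.

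Mitosis was the list whose pairs lay closest together, with medians of 0.16, 0.20 and 0.17. Of its 33 genes, 25 were above 0 on average and 15 in every pair, against 8.55% of probe sets above the median that were higher in every pair. KIF23, a kinesin of the central spindle, passed, from 76.5, 373 and 258 to 413, 522 and 403, a difference of 1.19 (standard error 0.44) that was 0.56 without pair 1. TOP2A, the topoisomerase that untangles chromosomes, had pair differences of 0.71, 0.23 and 0.76, a mean of 0.57 (standard error 0.31) that did not pass. In the empty chambers the list had pair medians of 0.33, 0.00 and 0.14, of the same sign without formaldehyde. DNA replication genes had a median of 0.05, with 25 of 41 above 0 and 0 passes. The splicing regulators had pair medians of 0.175, 0.08 and 0.20, with 22 of 27 above 0 and 0 passes, and HNRNPA1, an RNA-binding protein, had 0.66, 0.14 and 0.60.

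Acute phase and complement genes had a median of -0.235 with 3 of 14 above 0. The pair medians were -0.66, -0.12 and -0.08, the median without pair 1 was -0.075, and the empty chambers gave -0.246. CFB, the complement factor B, went from 3980, 1110 and 2760 to 1860, 746 and 1450, a difference of -0.87 (standard error 0.31). SERPINA3, a protease inhibitor of the acute phase, had -0.78 (standard error 0.32). IFITM1, an interferon-induced membrane protein, had -0.90 (standard error 0.32) with signals of 494, 162 and 305 against 230, 76.8 and 212, and 6 of 23 genes of the interferon list were above 0, with pair medians of -0.315, -0.03 and -0.19 and -0.06 in the empty chambers. Mucins and secretory genes had 4 of 20 above 0 and 0 passes, with pair medians of -0.59, -0.15 and 0.16 and a median of -0.21, against -0.28 in the empty chambers. SPDEF, a factor of secretory cells, had -1.19, -0.70 and -0.25. In the type II list SFTPC, the surfactant protein C, had -0.85 (standard error 0.31) and -0.80 in the empty chambers. Empty-chamber differences were -0.41 for CFB, -0.41 for SERPINA3 and -0.57 for IFITM1, and the difference from them passed for none of the 4 in limma.

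The other 4 list genes that passed and were lower belong to matrix, lipid and globin lists. LAMB3, a laminin chain, had -0.99 (standard error 0.35) and -1.03 in the empty chambers. SREBF1, a factor of lipid synthesis, had -0.79 (standard error 0.31) with pairs of -0.88, -0.56 and -0.95, and DGAT2, the last enzyme of triglyceride synthesis, had -0.79 (standard error 0.30) with -0.78, -0.68 and -0.92. HBB, beta globin, had signals of 52.2, 42.8 and 49.4 in the reference chambers and 25.5, 26.8 and 28.6 at 0.1 ppm, apart in all arrays, a difference of -0.83 (standard error 0.31) against 0.14 in the empty chambers. LPCAT2, an acyltransferase of phospholipids, passed in the fit above the median as well, at 1.18 (standard error 0.48) with pairs of 2.65, 0.51 and 0.36, a mean of 0.44 without pair 1 and 1.30 in the empty chambers. The junction, keratin, transport, glycolysis and proteasome lists had 0 passes.

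Ribosomal and respiratory genes had medians of opposite sign in pairs 1 and 3. The 34 ribosomal protein genes had medians of -0.51, 0.05 and 0.93, with a mean difference between -0.02 and 0.25 for every gene. The 27 genes of the respiratory chain had -0.56, 0.04 and 0.41. In the empty chambers the ribosomal medians were 0.09, 0.44 and -0.52, and the 0.93 of pair 3 at 0.1 ppm was larger than each of these. The cause of these shifts was not tested.

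**Figure D5:**
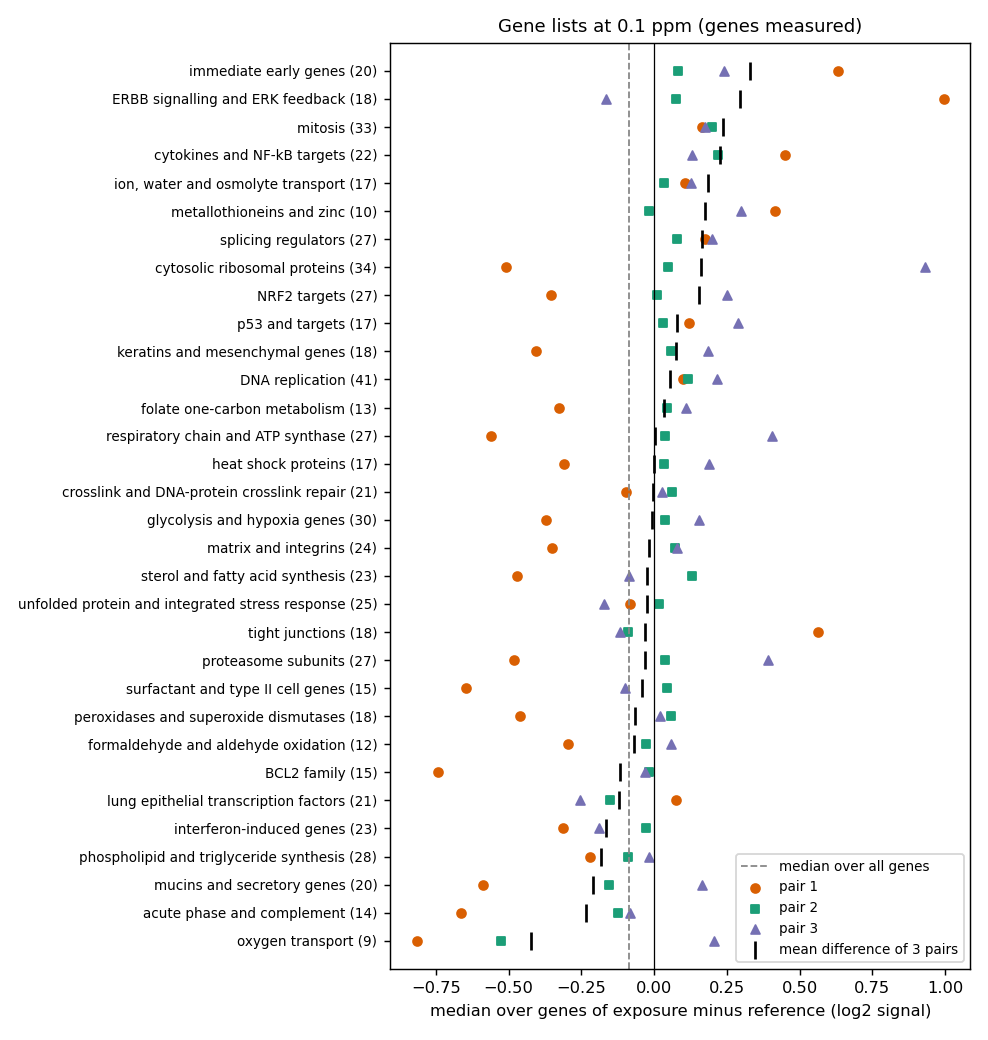
Median over the genes of each list of the log2 difference between the 0.1 ppm and the reference chamber (horizontal axis), as 1 symbol per pair and a black bar for the mean difference of the 3 pairs, for the 32 lists (vertical axis, number of genes measured in brackets). The 3 symbols of mitosis lie together between 0.16 and 0.20, those of the ribosomal proteins spread from -0.51 to 0.93, and the dashed line marks the median over all genes, -0.09.

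Below the median signal the differences were larger and the signals very small. The 4 genes of lowest p in each direction were LINC01012, VWA3B, DIO2 and MSH4, higher by 3.23 to 4.11, and C19orf47, SOX30, KRTAP4-4 and TRAT1, lower by -4.13 to -3.85. DIO2, which activates thyroid hormone, had signals of 1.05, 1.15 and 1.27 in the reference chambers and 9.16, 9.22 and 15.1 at 0.1 ppm, and SOX30, a factor of the testis, went from 12.1, 15.2 and 12.1 to 0.699, 1.05 and 1.01. All 8 had their arrays apart, as 7.87% of all probe sets had, and none had a signal over 20.2 on any array. With 32 added to the signals the differences shrank to between -0.56 and 0.38, and 4 of the 8 still passed. Other probe sets of these genes differed as well: a second one of VWA3B passed in the opposite direction, at -2.39, and a second one of DIO2 in the same, at 3.46. LINC01012 was as much higher in the empty chambers, at 3.19.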

How the data were processed

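Total RNA of A549 cultures was amplified, labelled and hybridised to whole genome arrays of 54675 probe sets, 1 array per culture. The authors computed MAS5 signal intensities in R/Bioconductor with default settings, deposited on a linear scale with each array scaled to a trimmed mean of 500, leaving out 2% at each end. Intensities were taken to log2 with no offset. Exposure and reference chamber were compared with limma 3.58.1 (R 4.3.3) with the replicate number as a block, over all probe sets, with the unadjusted p of 0.05 that the methods set as limit. Adjustment followed Benjamini and Hochberg over all probe sets tested. The pairing comes from the labels, in which the chambers of a replicate share an experiment number. Deviations of same-numbered arrays from their group means correlated with r = -0.0092, 0.121 and -0.0196 over all probe sets. Differences at 0.1 ppm were tested against those at 0 ppm on the pair differences. The fits were tested on simulated data. Of the probe sets, 41097 name 1 gene, 1801 several and 11777 none in the platform annotation, for 19775 genes, and a gene stands for its brightest probe set in the lists. The genes named above the median signal were those with an unadjusted p under 0.05 and the same sign in 3 pairs, up to 15 per direction by size, 1 probe set each (the lowest p). Below the median, the 4 of lowest p per direction were named. From the lists, members past the threshold and up to 4 of the largest difference could be named, with ADH5, ESD, ALDH2, HMOX1 and NQO1. The comparison, rules and lists were chosen with earlier results of these data known. Alternatives tried were no replicate block, quantile normalization, 32 added before log2, an intensity trend, probe sets above the median signal alone, all 18 arrays, a ratio of 2 and leaving out each pair. Leaving out reference chamber replicate 1 was chosen after seeing the data. The number of arrays limits the precision. Promoters come from RefSeq, build GRCh38.p14.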

Additional observations from a re-analysis of the deposited data

Results flagged for a closer look

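The chamber difference at 0.1 ppm differed from that at 0 ppm, by the test of the difference between them at an unadjusted p of 0.05 in limma, for 9 of the 28 genes above the median signal. This difference of log2 differences was 1.36 for ZNF595, 1.02 for LRRC40, -1.75 for GIP, -2.79 for BIVM, -1.17 for RDH16, -1.25 for F10, -1.53 for NUP58, -1.66 for LOC646214 and -1.9 for PRKXP1. GIP and LOC646214 passed in all 9 settings of this test, and NUP58 in 8. For BIVM and PRKXP1 the empty chambers differed the other way, by 1.04 and 0.63, which adds to the value. Below the median signal the difference was 4.21 for VWA3B, 4.98 for DIO2, 3.97 for MSH4, -3.86 for C19orf47, -3.87 for SOX30, -4.61 for KRTAP4-4 and -3.95 for TRAT1, all at signals near the floor of the array. DIO2 was lower by -1.74 in the empty exposure chamber, where it passed the same threshold. After adjustment none of the 54675 probe sets passed in this test in limma, where 2135 passed at an unadjusted p of 0.05, and the lowest adjusted p was 0.862.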

How the results depend on the processing

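The paired comparison at 0.1 ppm gave 2449 probe sets past the threshold, and 653 when probe sets above the median signal were fitted alone. Leaving out 1 pair gave 2822 to 3183. Without the replicate block the count was 2186, with quantile normalization 2551, with 32 added 1876, with an intensity trend 1656, with all 18 arrays 3111 and with a ratio of 2 required 2404. The comparison of the 0.1 ppm with the 0 ppm chamber difference gave 2135, and 1139 with 32 added, 1226 with the trend and 269 above the median signal alone. Leaving out 1 pair gave 2372 to 2657, and no replicate block 1754. The cause of these changes was not tested, except that fewer probe sets entered where the median was the limit. The 28 genes above the median signal and the 8 below it had the same sign in every pair. Leaving out a pair or adding 32 could therefore not change the sign of their mean. The mean itself is the same without the replicate block, with the trend and with all 18 arrays. Quantile normalization and leaving out reference chamber replicate 1 could have changed the sign, and did not for any of them. List genes with differences near 0 did change sign. ESD and NQO1 had -0.04 and -0.10 after quantile normalization, and ADH5 and ALDH2 0.08 and 0.03 without pair 1. Of the 28 genes above the median signal, 27 kept their side of the threshold with 32 added, 27 with quantile normalization, 25 with the trend, 24 with all 18 arrays and 16 without the replicate block. List medians moved by more than the spread between pairs for 1 to 6 of 32 lists per setting. Signals near the floor of the array limit what can be read from dim probe sets.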
